A study of Mus musculus with 2 samples.

Results

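Mrgprb1, Mrgprb2, Mrgprb8 and Mrgprb13 belong to the b branch of the Mas-related G protein-coupled receptors, and they were selected by symbol from the 32285 gene rows of a single-cell count matrix. Of these 4 genes, 3 had a row and were measured, while Mrgprb13 was not analysed here. The genes were chosen with earlier results of these data in view, so their levels are given as a description and no test is attached to them. Nearly all of the signal came from 2 of them, with 48025 unique molecular identifiers (UMIs, each standing for 1 captured transcript) of Mrgprb1 and 18615 of Mrgprb2 in 29285 cells. Mrgprb8 had 1 UMI in these cells.

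The cells came from aortas of 2 C57BL/6J mice, labelled male and 12 weeks old, whose digested cells had been grown for 14 days in methylcellulose. Colony-forming units of macrophages (CFU-M) were then picked, sorted for viability, tagged with lipid-anchored barcodes and run as 1 droplet library, so that there was 1 sample with no replicate, and every interval below is a 95% interval that covers counting error only. The matrix also holds 3 tag rows, named Cafum, Matrigel and Macrophages, whose relation to the 2 mice the labels do not explain, and the cells of the mice cannot be separated by label. After filtering, 29285 of 34813 barcodes were kept with a median of 12485 UMIs, and grouping of the cells gave 14 clusters. Although the label of the sample is CFU-M progenitors, 21301 cells (72.7%) in clusters 1, 2, 3, 5, 6, 7 and 8 were mast cell-like by 7 markers (Cma1, Mcpt4, Cpa3, Tpsb2, Fcer1a, Ms4a2 and Hdc), 2531 cells in cluster 4 were macrophage-like, and 5106 cells in cluster 0 were fibroblast-like. Xist, the RNA that coats the inactive X chromosome and is not normally made in cells of male mice, was also measured in these cells, at 378 CPM in the mast cell-like class, against the label of male mice. CPM gives the UMIs of a gene scaled to a common total, so that 100 CPM stands for 1 of every 10000 gene UMIs. Y-linked transcripts were present as well, and the results on clusters, cycling, Kit and joint detection are therefore also given within cells that had Xist and within cells that had Y-linked transcripts.

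Mas-related receptors are membrane receptors found on itch-sensing neurons and on mast cells of connective tissue. Mrgprb2 is the mouse receptor through which cationic peptides and drugs such as substance P and icatibant trigger degranulation without IgE, and it is the functional counterpart of human MRGPRX2. Mrgprb1 is its close relative and is also a gene of connective tissue mast cells. In skin and peritoneum these receptors are known as markers of mature connective tissue mast cells, and mucosal mast cells largely lack them.

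The 4 genes lie near each other on chromosome 7. In GENCODE on GRCm38, the assembly called mm10, the interval from Mrgprb13 to Mrgprb2 spans 247 kb and holds 6 annotated genes, these 4 with Mrgprx2, which lies between Mrgprb1 and Mrgprb2, and Gm18357, and no annotated gene overlaps any of the 4. Mrgprb8 (ENSMUSG00000050870) is at chr7:48388526-48389648 on the plus strand as 1 exon. Mrgprb1 (ENSMUSG00000070547) is at chr7:48444113-48456342 on the minus strand, and its longest transcript has 2 exons and 4185 bases. Mrgprb2 (ENSMUSG00000050425) is at chr7:48550965-48558086 on the minus strand, with 2 exons and 2077 bases. Mrgprb13 is at chr7:48311304-48312288 on the plus strand and is annotated there as an unprocessed pseudogene. Because these genes are related in sequence, the transcripts were compared for runs of identical bases that could mislead read assignment. The longest run shared by Mrgprb1 and Mrgprb2 was 25 bases, and the last 400 bases of either transcript, where a 3′ library takes its reads, shared at most 11 bases with the other gene. Mrgprb1 and its neighbour Mrgprx2, a mouse gene that is distinct from human MRGPRX2, shared a run of 39 bases, and at most 22 bases where the last 400 bases of either were compared with the other.

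The 250 bases before the annotated start of the 2 abundant genes and of the near-silent Mrgprb8 are shown because Mrgprb1 and Mrgprb2 varied together across cells while Mrgprb8 was almost undetected. The sequences are RefSeq's for build GRCm38.p6, written 5′ to 3′ on the strand of the gene, at chr7:48456343-48456592 (minus) for Mrgprb1, chr7:48558087-48558336 (minus) for Mrgprb2 and chr7:48388276-48388525 (plus) for Mrgprb8. Capitals mark matches on either strand to GATAA (core letters of GATA factors), CATGTG (an E-box letter string bound by MITF), TGTGGT (core letters of RUNX factors) and TGACTCA (AP-1). The last of these was added after the windows had been read.
Mrgprb1: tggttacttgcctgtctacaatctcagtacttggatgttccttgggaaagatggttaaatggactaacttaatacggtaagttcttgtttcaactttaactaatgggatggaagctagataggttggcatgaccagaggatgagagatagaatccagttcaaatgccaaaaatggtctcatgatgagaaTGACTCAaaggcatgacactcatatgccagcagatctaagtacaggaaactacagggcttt
Mrgprb2: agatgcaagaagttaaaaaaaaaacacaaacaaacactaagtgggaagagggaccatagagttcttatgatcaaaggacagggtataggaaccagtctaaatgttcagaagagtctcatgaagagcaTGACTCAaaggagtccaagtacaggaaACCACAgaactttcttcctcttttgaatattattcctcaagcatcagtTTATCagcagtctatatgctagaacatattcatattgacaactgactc
Mrgprb8: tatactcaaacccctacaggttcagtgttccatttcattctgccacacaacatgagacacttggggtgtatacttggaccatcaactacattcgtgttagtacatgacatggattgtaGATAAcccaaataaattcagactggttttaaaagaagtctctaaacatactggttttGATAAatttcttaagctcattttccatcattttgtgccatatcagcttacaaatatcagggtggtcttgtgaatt
In the Mrgprb1 window the only match was TGACTCA, 55 to 61 bases before the start. The Mrgprb2 window held TGACTCA at 117 to 123 bases, TGTGGT at 91 to 96 bases and GATAA at 44 to 48 bases before the start, the last 2 matching on the other strand, so that the capitals show their reverse complements. Mrgprb8 had GATAA at 71 to 75 and at 128 to 132 bases. The window of the neighbour Mrgprx2, not printed here, also held TGACTCA, at 75 to 81 bases, and TGTGGT at 29 to 34 bases. Mrgprx2 was at only 1.77 CPM in mast cell-like cells, so TGACTCA was not limited to the abundant genes. Among 32851 windows of the same length, 22.6% held GATAA, 12.3% CATGTG, 14.0% TGTGGT and 4.46% TGACTCA, so each match is a description of letters in these windows and not of a bound site. The longest run of bases shared by the Mrgprb1 and Mrgprb2 windows was 13 and that shared by the Mrgprb1 and Mrgprb8 windows was 8.

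Mrgprb1 and Mrgprb2 were detected mainly in the mast cell-like class. Mrgprb1 was at 146 CPM (145 to 147) in mast cell-like cells, 55.8 CPM (52.9 to 58.8) in macrophage-like cells and 21.9 CPM (21.2 to 22.6) in fibroblast-like cells. Mrgprb2 was at 56.0 CPM (55.2 to 56.9), 23.4 CPM (21.5 to 25.3) and 9.65 CPM (9.18 to 10.1) in the same 3 classes. Of these 3 classes, mast cell-like cells were highest and fibroblast-like cells lowest for both genes, and none of the intervals touched. The 347 cells of clusters left unnamed had 216 CPM (202 to 230.3) of Mrgprb1 and 62.8 CPM (55.5 to 70.8) of Mrgprb2. In the mast against macrophage-like comparison, 16.1% of 16244 genes with at least 50 UMIs were 2 times or more higher in mast cell-like cells, and against fibroblast-like cells 16.5% of 18189 genes were. Mrgprb8, with its single UMI in cluster 6, stood at 0.00347 CPM in mast cell-like cells, below the 0.0104 CPM that 3 UMIs would give.

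The reads of mast cell markers in the other classes were set beside the Mrgprb values, because RNA free in the suspension or mast cells sharing a droplet give UMIs in cells that do not express a gene. The macrophage-like to mast cell-like ratio was 0.382 (0.363 to 0.403) for Mrgprb1 and 0.417 (0.384 to 0.452) for Mrgprb2, while the 7 mast cell markers ranged from 0.272 to 0.352. In fibroblast-like cells the ratio was 0.150 (0.145 to 0.155) for Mrgprb1 and 0.172 (0.163 to 0.181) for Mrgprb2, beside 0.120 to 0.142 for the markers. Among macrophage-like cells carrying the Macrophages tag alone the ratios were lower for all of these genes, at 0.116 (0.0983 to 0.135) for Mrgprb1 and 0.156 (0.124 to 0.194) for Mrgprb2, with markers at 0.103 to 0.119. Thinned fibroblast-like cells with the Matrigel tag alone gave 0.0690 (0.0588 to 0.0805) and 0.0875 (0.0692 to 0.109), with markers at 0.0495 to 0.0586. Mrgprb1 was therefore within the marker range in the thinned macrophage-like cells with the Macrophages tag alone. Mrgprb2 in both classes and Mrgprb1 in fibroblast-like cells were somewhat above it. Thinned macrophage-like cells with more than 1 tag had 116 CPM of Mrgprb1 and 12610.2 CPM of the mast cell chymase Cma1, against 20.9 and 2599 CPM with the Macrophages tag alone.

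Deeper cells show more genes, so cells were next thinned to 5500 UMIs each, which left 26945 cells and dropped 2340 shallower ones. At that depth Mrgprb1 had a UMI in 26.3% (25.6 to 26.9%) of 19856 mast cell-like cells and Mrgprb2 in 22.8% (22.2 to 23.4%), compared with 35.0% and 34.2% before thinning. The same shares were 12.4% and 9.10% in macrophage-like cells and 7.93% and 4.84% in fibroblast-like cells, with median depths before thinning of 11302 UMIs in mast cell-like cells, 8435 UMIs in macrophage-like cells and 30972.5 UMIs in fibroblast-like ones. Macrophage-like cells with more than 1 tag (573 cells) had shares of 25.1% and 19.4%, and those with the Macrophages tag alone (1376 cells) 7.27% (5.95 to 8.77%) and 4.8% (3.73 to 6.06%). The values of all macrophage-like cells therefore include droplets rich in mast cell RNA. Fibroblast-like cells were mixed in the same way, with shares of 15.2% and 9.39% with more than 1 tag and 17.6% and 9.29% with the Cafum tag alone. With the Matrigel tag alone their shares were 4.63% and 2.88%. Fibroblast-like cells without a tag (1008 cells) had 4.27% and 2.88%. The lower background is thus that of macrophage-like cells with the Macrophages tag alone and fibroblast-like cells with the Matrigel tag alone or no tag. Mrgprb8 had a UMI in 0 of 19856 thinned mast cell-like cells, and the exact interval allows a UMI in up to 0.0186% of cells, which limits detection at this depth and not the share of cells that express the gene. Counts of Mrgprb1 were unevenly spread among mast cell-like cells: 73.7% had none, 8.85% had 1 UMI, 9.80% had 2 to 4, 5.50% had 5 to 9, and 2.11% had 10 or more, with a highest count of 30. Mrgprb2 had a highest count of 9, and 0.604% of the cells had 5 to 9 UMIs.

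Within the mast cell-like class, 2 clusters held most of the Mrgprb transcripts. Cluster 3, led by Gm4847, the calcium channel subunit gene Cacnb4 and Mrgprb1 itself, had 492 CPM (486 to 498) of Mrgprb1 and 162 CPM (159 to 166) of Mrgprb2. Cluster 6, led by the GABA transporter gene Slc6a13, had 310.1 CPM (303 to 317) and 114 CPM (109 to 118). Mrgpr genes and the marker genes had been left out when the clusters were made. Together the 2 clusters held 73.3% of the mast cell-like UMIs of Mrgprb1 and 64.5% of those of Mrgprb2 with 29.7% of the cells.

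The remaining mast cell-like clusters were lower in steps. Cluster 2, led by Atp8a2 and the cathepsin E gene Ctse, had 95.7 CPM of Mrgprb1 and 50.7 CPM of Mrgprb2. In cluster 1, led by globin genes, the levels were 68.3 and 39.6 CPM. Clusters 7 and 8, led by mitotic genes such as Cenpa and Ccnb2 and by histone genes, had 37.6 and 25.8 CPM of Mrgprb1 and 15.9 and 11.0 CPM of Mrgprb2. Cluster 5, led by the cathepsin G gene Ctsg and by replication genes such as Mcm3, was lowest at 20.3 CPM (19.1 to 21.6) and 8.32 CPM (7.52 to 9.17). Both genes had the same order over the 7 clusters, and neighbouring intervals did not touch for either gene. The macrophage-like value of Mrgprb1 (55.8 CPM) was above those of clusters 5, 7 and 8. In thinned cells Mrgprb1 was at 48.6 CPM in all macrophage-like cells and 20.9 CPM in those with the Macrophages tag alone. At equal depth 15% (13.9 to 16.1%) of cluster 1 cells had a Mrgprb2 UMI, above the 9.10% of macrophage-like and 4.84% of fibroblast-like cells, while its 14.5% (13.4 to 15.6%) for Mrgprb1 was above the 7.27% of singly tagged macrophage-like cells and overlapped the interval of all macrophage-like cells (11.0 to 14.0%). Cluster 7 had 11.2% (9.88 to 12.7%) and 7.65% (6.53 to 8.90%), above singly tagged macrophage-like cells and overlapping all of them. Clusters 5 and 8 had 8.33% (7.28 to 9.48%) and 9.74% (8.27 to 11.4%) of cells with Mrgprb1 and 4.33% and 5.61% with Mrgprb2, and these intervals overlapped those of singly tagged macrophage-like cells. Fibroblast-like cells with the Matrigel tag alone were lower, at 4.63% (3.83 to 5.55%) for Mrgprb1 and 2.88% (2.25 to 3.63%) for Mrgprb2. The Mrgprb1 intervals of clusters 5 and 8 lay above that share. The background thus differed between kinds of droplets, and that of clusters 5 and 8 was not measured. In these 2 clusters own expression and RNA from other cells cannot be told apart by these shares.

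**Figure D1:**
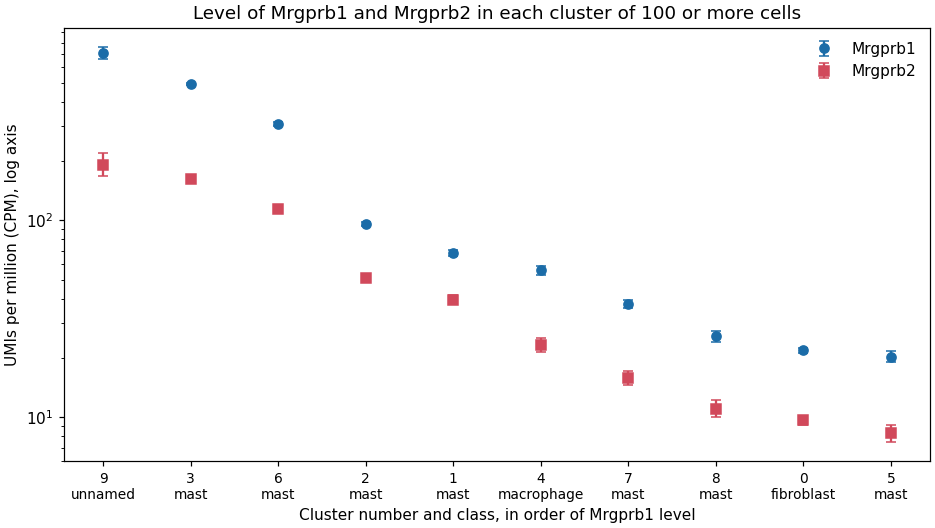
Level of Mrgprb1 (circles) and Mrgprb2 (squares) in CPM on a log axis for every cluster of 100 or more cells, ordered by Mrgprb1; bars are 95% Poisson intervals of the summed UMIs. Clusters 3 and 6 stand above the other mast cell-like clusters for both genes, and the unnamed cluster 9, of 199 cells, is highest.

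The range over the mast cell-like clusters was wide for both genes. Cluster 3 had 24.2 times (22.7 to 25.8) the Mrgprb1 level of cluster 5 and 19.5 times (17.6 to 21.6) its Mrgprb2 level. Over 5618 genes with a mean of 20 CPM or more across the mast cell-like clusters, the median ratio of the highest to the lowest cluster was 1.69. Counting the gene itself, 52 genes had a ratio as large as Mrgprb1 and 59 as large as Mrgprb2. By the same measure, computed with a small constant added to each level, Mrgprb1 was at 23.7, Mrgprb2 at 18.4, the histamine-synthesis gene Hdc at 5.43, the stem cell factor receptor gene Kit at 2.13 and Cma1 at 1.74. The clusters differed less in the balance of the 2 receptors. For each UMI of Mrgprb1 there were 0.330 (0.321 to 0.338) UMIs of Mrgprb2 in cluster 3 and 0.366 (0.350 to 0.383) in cluster 6, against 0.529 (0.505 to 0.555) in cluster 2 and 0.580 (0.545 to 0.616) in cluster 1. The clusters with the lowest levels lay between these pairs, at 0.410 (0.364 to 0.461) in cluster 5, 0.422 (0.383 to 0.465) in cluster 7 and 0.428 (0.380 to 0.481) in cluster 8, so the balance did not follow the order of the levels.

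The clusters also differed in Xist and in Y-linked transcripts. Xist was at 874 CPM in cluster 3 and 488 CPM in cluster 6, and at 181 to 344 CPM in the other mast cell-like clusters. The summed level of 4 Y-linked genes (Ddx3y, Eif2s3y, Uty and Kdm5d) was 17.0 CPM in cluster 3 and 18.5 CPM in cluster 6, against 39.2 to 76.5 CPM in the other 5. Cells were therefore split, in a step added after this had been seen, into those with 3 or more Xist UMIs and no UMI of the 4 Y-linked genes (8512 mast cell-like cells, called Xist cells here) and those with 2 or more Y-linked UMIs and at most 1 Xist UMI (2277 cells, called Y cells), which leaves 49.3% of mast cell-like cells in neither. Xist cells made up 82.4% of cluster 3 and 56.3% of cluster 6, where Y cells made up 0.788% and 1.15%. In the other mast cell-like clusters Xist cells were 19.0 to 32.8% and Y cells 11.1 to 18.1%. Xist and Y-linked genes were among the genes that could shape the clusters.

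Mrgprb1 and Mrgprb2 were higher in Xist cells than in Y cells. Over thinned mast cell-like cells, Mrgprb1 was at 315 CPM (309.5 to 319.9) in 8109 Xist cells and 44.9 CPM (41.2 to 48.8) in 2191 Y cells, a ratio of 7.01 (6.43 to 7.65). For Mrgprb2 the levels were 109 CPM (106 to 112) and 27.3 CPM (24.4 to 30.4), a ratio of 4.0 (3.58 to 4.49). The balance of the receptors thus also differed between these cells, with 4872 UMIs of Mrgprb2 beside 14035 of Mrgprb1 in Xist cells and 329 beside 541 in Y cells. Of 12469 genes compared, 4.72% were 1.5 times or more higher in Xist cells, 23 genes had a ratio as high as that of Mrgprb1 and 54 as high as that of Mrgprb2. The same ratio was 1.01 (0.992 to 1.03) for Kit, 1.17 for Cma1 and 0.986 for the chymase gene Mcpt4.

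Between Xist and Y cells the direction was the same inside each cluster, with a smaller ratio in all 7 than over the whole class. Mrgprb1 in Xist cells against Y cells stood at 191 against 69.6 CPM in cluster 2, a ratio of 2.74 (2.41 to 3.12), and at 93.5 against 50.9 CPM in cluster 1, a ratio of 1.84 (1.5 to 2.26). In clusters 5, 7 and 8 its ratio was 3.22, 3.09 and 3.50. Clusters 3 and 6 had only 29 and 28 thinned Y cells, whose Mrgprb1 level was 107 CPM (62.1 to 171) and 169 CPM (110.3 to 247), against 568 and 317 CPM in Xist cells. Cells in neither group had 97.5 CPM of Mrgprb1 over the whole class, with 507 CPM (483 to 533) in cluster 3 and 332 CPM (316 to 349) in cluster 6. The cluster 6 interval overlapped that of its Xist cells (304 to 330.1 CPM). In clusters 1, 2, 5, 7 and 8 cells in neither group had 17.0 to 73.6 CPM, below the Xist cells of the same cluster. Mrgprb2 was also higher in Xist than in Y cells in each cluster, by 1.15 to 3.37 times. In clusters 5 and 6 the interval of its ratio included 1. Among Xist cells alone the clusters still differed, cluster 3 having 16.0 times (13.3 to 19.3) the Mrgprb1 level and 18.3 times (13.0 to 26.6) the Mrgprb2 level of cluster 5. Macrophage-like droplets showed the same direction, with 57.7 CPM of Mrgprb1 in Xist cells and 17.5 CPM in Y cells. So did fibroblast-like droplets, with 28.3 and 11.1 CPM. Droplets in neither group had 59.6 CPM (macrophage-like) and 26.6 CPM (fibroblast-like), near the values of Xist cells. Among fibroblast-like cells with the Matrigel tag alone, Mrgprb1 was at 14.4 CPM (11.8 to 17.5) in Xist cells and 7.01 CPM (4.22 to 10.9) in Y cells. Whether Xist marks cells of another animal, another culture or another suspension was not tested, and source and receptor level cannot be told apart in 1 library.

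**Figure D2:**
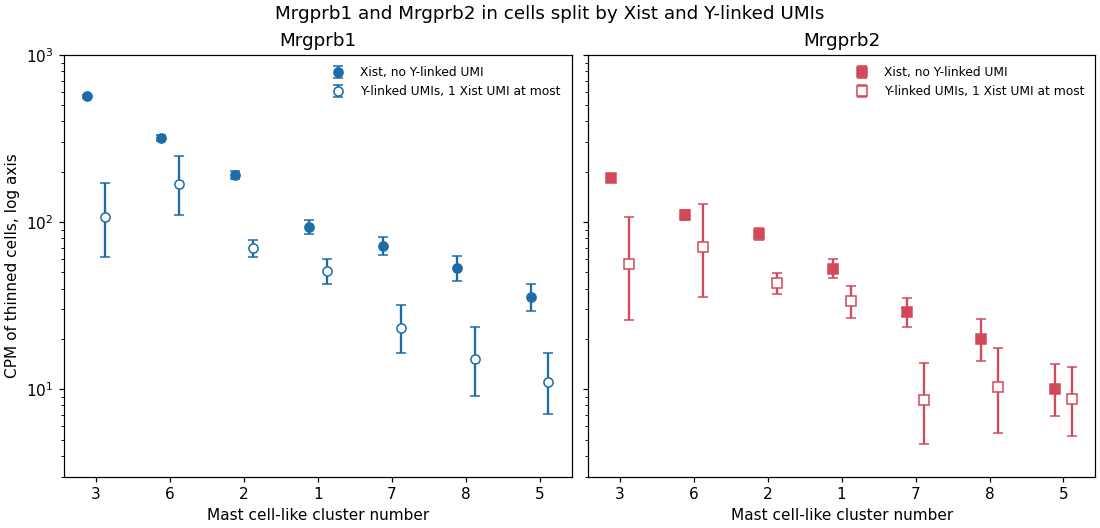
Mrgprb1 (left) and Mrgprb2 (right) in CPM of thinned cells, on a log axis, in each mast cell-like cluster for Xist cells (filled) and Y cells (open); bars are 95% Poisson intervals. The Xist value is above the Y value in all 7 clusters for both genes, and within Xist cells cluster 3 is highest and cluster 5 lowest.

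Cycling state was read from UMIs of Mki67, Top2a, Birc5, Cdk1, Ube2c and Cenpf, genes of the late cell cycle. Thinned mast cell-like cells with none of the 6 were called non-cycling (12088 cells), those with 3 or more cycling (2467 cells), and 5301 lay between. Mrgprb1 was at 227 CPM (224 to 231) in non-cycling, 143 CPM (139 to 147) in intermediate and 31.0 CPM (28.1 to 34.1) in cycling cells. Mrgprb2 followed with 85.3 (83.1 to 87.5), 55.0 (52.3 to 57.7) and 15.5 CPM (13.5 to 17.7). The cycling to non-cycling ratio was 0.136 (0.123 to 0.150) for Mrgprb1 and 0.182 (0.157 to 0.208) for Mrgprb2, and both were among the 16.6% of 13046 genes that were 1.5 times or more lower in cycling cells. A UMI of Mrgprb1 was present in 31.2% of non-cycling and 10.2% of cycling cells, and a UMI of Mrgprb2 in 27.8% and 7.13%. The shares in cycling cells, with intervals of 9.05 to 11.5% and 6.15 to 8.22%, overlapped those of all macrophage-like cells (11.0 to 14.0% and 7.87 to 10.5%) and lay above the 7.27% and 4.8% of those with the Macrophages tag alone and the 7.93% and 4.84% of fibroblast-like cells. Before thinning the median depth was 10546 UMIs in non-cycling and 20755 UMIs in cycling cells.

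Levels were lower with each added cycling gene up to 3, and lower again in cells with all 6 for Mrgprb2. Mrgprb1 was at 162 CPM with 1 of the 6 genes, 79.0 CPM with 2, 33.8 CPM with 3, 34.9 CPM with 4, 28.0 CPM with 5 and 25.1 CPM with all 6. Mrgprb2 was at 63.3, 27.5, 18.2, 18.4, 13.7 and 9.59 CPM in the same groups. From 3 genes upward the intervals of neighbouring groups overlapped for both genes. Between 3 genes and all 6, those of Mrgprb2 did not (14.3 to 22.9 against 6.26 to 14.0 CPM), while those of Mrgprb1 did (28.3 to 39.9 against 19.5 to 31.8 CPM).

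**Figure D3:**
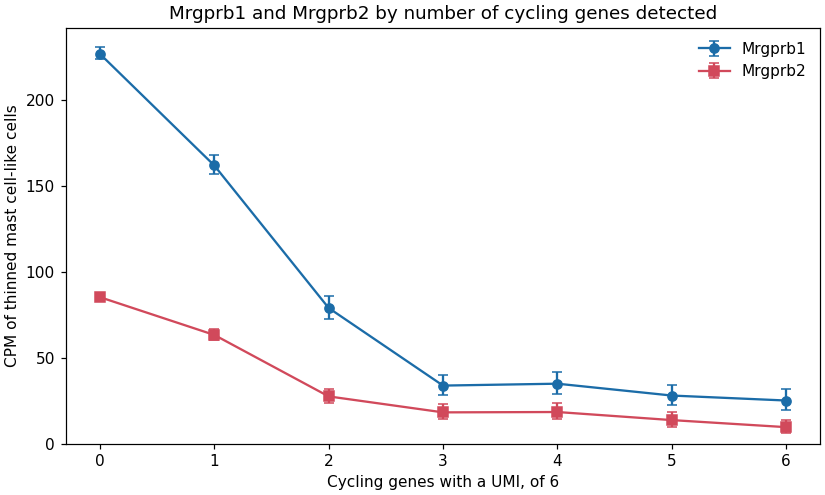
Mrgprb1 (circles) and Mrgprb2 (squares) in CPM of thinned mast cell-like cells, by how many of the 6 cycling genes had a UMI; bars are 95% Poisson intervals. Mrgprb1 goes from 227 CPM with none of the genes to 33.8 CPM with 3 and 25.1 CPM with all 6.

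Nearly all cycling cells were in clusters 7 and 8, where 54.9% and 85.7% of thinned cells were cycling, against 0.138 to 2.78% in the other mast cell-like clusters. Cycling and non-cycling cells were both present, with 70 or more of each, in clusters 5 and 7 alone. Inside cluster 7, Mrgprb1 was at 33.4 CPM in 1105 cycling cells and 64.5 CPM in 141 non-cycling cells, a ratio of 0.518 (0.379 to 0.721), and Mrgprb2 at 16.9 and 18.1 CPM, a ratio of 0.939 (0.535 to 1.78). Inside cluster 5 the summed ratio was 1.02 (0.501 to 1.86) with 70 cycling cells, and the 1399 non-cycling cells of that cluster had only 19.1 CPM of Mrgprb1. These cells had none of the 6 genes, but the leading genes of cluster 5 include the replication genes Hells, Mcm3 and Mcm4, so they are not shown to be outside the cell cycle. Within Xist cells the cycling to non-cycling ratio was 0.159 (0.140 to 0.181) for Mrgprb1, from 364 to 58.1 CPM, and 0.213 (0.175 to 0.258) for Mrgprb2. In Y cells it was 0.318 (0.222 to 0.445), from 59.0 to 18.8 CPM, and 0.251 (0.146 to 0.405), from 35.5 to 8.89 CPM.

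Kit encodes the receptor for stem cell factor, on which mast cells depend, and both Mrgprb genes were higher in cells with more Kit. Thinned mast cell-like cells were divided at the quartiles of their Kit UMIs into groups with at most 4, 5 to 7, 8 or 9, and 10 or more. Mrgprb1 was at 99.4 CPM (95.7 to 103), 154 CPM (149 to 158), 209 CPM (202 to 216) and 264 CPM (258 to 269.7) in these groups. Mrgprb2 was at 36.2 (34.0 to 38.5), 60.2 (57.5 to 62.9), 78.9 (74.8 to 83.1) and 100 CPM (96.5 to 104). Each step was larger than the counting error for both genes. The ratio of the highest to the lowest group was 2.66 (2.54 to 2.77) for Mrgprb1 and 2.76 (2.57 to 2.97) for Mrgprb2, and 20.7% of 12537 genes were 1.5 times or more higher in the Kit-high group, with 8.84% as much lower.

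Cycling cells made up 24.3% of the lowest Kit group and 3.38% of the highest. Among non-cycling cells the ratio was 1.98 (1.88 to 2.09) for Mrgprb1, from 147 to 291 CPM, and 2.00 (1.84 to 2.18) for Mrgprb2, from 54.2 to 108 CPM, where 18.3% of 11615 genes were 1.5 times or more higher and 3.80% lower. The high-Mrgprb cluster 6 had a median of 6 Kit UMIs per thinned cell and cluster 3 a median of 8, while cluster 2, with lower Mrgprb levels, had the highest median, 10, and held 37.1% of the Kit-high cells. Inside clusters the summed Kit-high to Kit-low ratio was 1.53 (1.45 to 1.62) in cluster 3, 1.86 (1.72 to 2.01) in cluster 6, 1.60 (1.39 to 1.86) in cluster 2 and 1.69 (1.49 to 1.91) in cluster 1. It was 1.96 in cluster 7, 2.51 in cluster 8 and 0.781 (0.554 to 1.08) in cluster 5, whose interval included 1. Within Xist cells Mrgprb1 had a ratio of 2.84 (2.69 to 3.0) and Mrgprb2 of 2.59 (2.36 to 2.84), and within Y cells the ratios were 2.93 (2.26 to 3.84) and 3.98 (2.79 to 5.80).

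**Figure D4:**
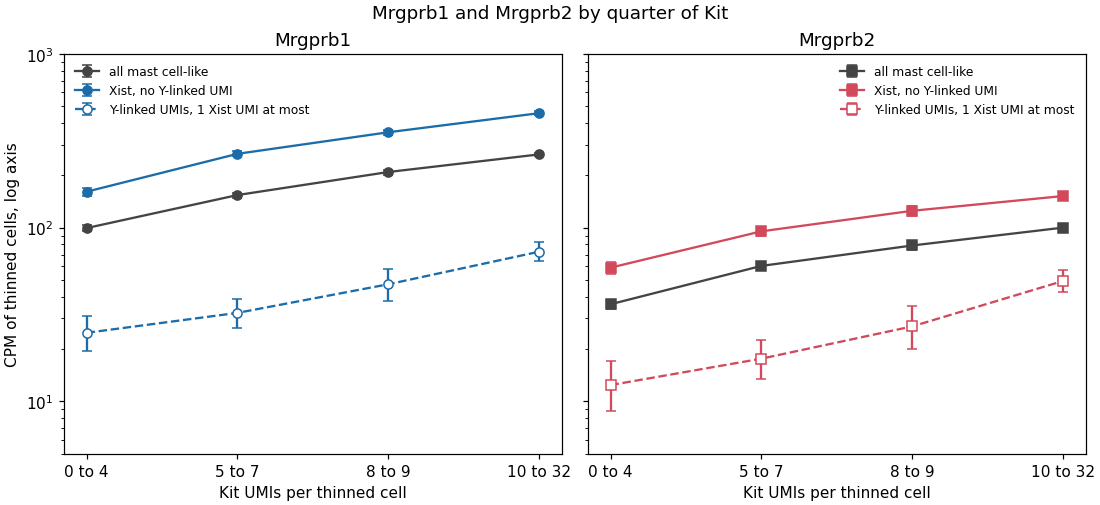
Mrgprb1 (left) and Mrgprb2 (right) in CPM of thinned cells, on a log axis, by Kit UMIs per cell, for all mast cell-like cells (grey), Xist cells (filled, coloured) and Y cells (open); bars are 95% Poisson intervals. All 3 lines go up from the lowest to the highest Kit group, and the Y line lies below the Xist line throughout.

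Receptor levels differed by less than 1.5 times between cells with the Cafum tag and cells without a tag. Among thinned mast cell-like cells, 15104 had the Cafum tag alone and 3903 had no tag called. Mrgprb1 was at 180.0 CPM (177 to 183) with the Cafum tag and 183 CPM (178 to 189) without a tag, a ratio of 0.982 (0.948 to 1.02). Mrgprb2 was at 65.9 CPM (64.2 to 67.7) and 78.9 CPM (75.2 to 82.7), a ratio of 0.836 (0.791 to 0.883). Neither gene was among the 3.32% of 13571 genes that were 1.5 times or more higher or the 2.62% that were lower with the Cafum tag. Clusters 5 and 8 made up 7.56% and 1.90% of the cells without a tag and 14.0% and 8.81% of those with the Cafum tag. Inside clusters the Mrgprb2 ratio was 0.928 (0.856 to 1.01) in cluster 3, 0.954 (0.834 to 1.09) in cluster 6, 0.941 (0.797 to 1.11) in cluster 1 and 0.864 (0.766 to 0.976) in cluster 2. For Mrgprb1 it was 1.03 (0.984 to 1.08), 1.13 (1.04 to 1.23), 1.23 (1.07 to 1.42) and 0.984 (0.900 to 1.08) in the same clusters, so that the intervals for Mrgprb2 in cluster 2 and for Mrgprb1 in clusters 6 and 1 excluded 1. Mast cell-like cells with the Matrigel tag alone (53 cells) or the Macrophages tag alone (86 cells) had 158 CPM (116 to 210.5) and 239 CPM (197 to 287) of Mrgprb1.

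The 2 receptors were found together more often than their separate shares would give. Of 19856 thinned mast cell-like cells, 5214 had Mrgprb1 and 4522 had Mrgprb2, and 2665 had both where 1187 would have them if detection were unrelated, a ratio of 2.24 (2.16 to 2.33). The share of cells with Mrgprb2 was 12.7% where Mrgprb1 had no UMI, 31.1% with 1 UMI, 52.0% with 2 to 4, 69.3% with 5 to 9 and 83.7% (79.8 to 87.1%) with 10 or more. The intervals of these 5 groups did not overlap. At 10 or more Mrgprb1 UMIs, 78.2% of the cells were Xist cells and 1.20% Y cells, compared with 33.2% and 13.1% where Mrgprb1 had none. The ratio of cells with both to the number given by the separate shares was 1.93 (1.85 to 2.02) among non-cycling cells, 1.69 (1.62 to 1.77) among Xist cells, 2.43 (1.91 to 3.05) among Y cells, 1.22 (1.16 to 1.29) in cluster 3 and 1.5 (1.38 to 1.63) in cluster 6. It was 2.05 to 3.82 in the other mast cell-like clusters, where both genes were detected less often and the ratio has more room to be high. Every one of these intervals was above 1. Macrophage-like and fibroblast-like droplets also had ratios above 1, 3.62 (2.87 to 4.5) and 4.13 (3.27 to 5.16), in 81 and 78 cells with both genes.

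**Figure D5:**
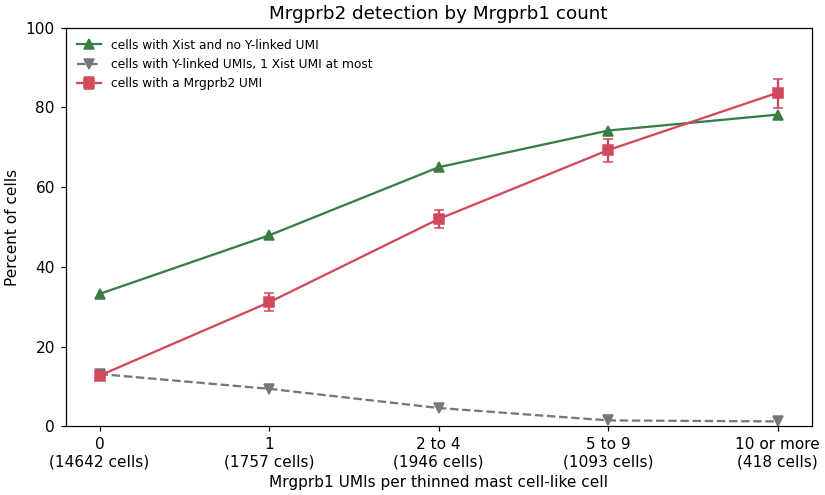
Percent of thinned mast cell-like cells with a Mrgprb2 UMI (squares, with 95% exact binomial intervals), and percent that were Xist cells or Y cells, by Mrgprb1 UMIs in the cell. Mrgprb2 detection goes from 12.7% to 83.7%, and the share of Xist cells from 33.2% to 78.2%.

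Genes with the most similar pattern were ranked by Pearson's r of log2(1 + UMIs) across 19856 thinned mast cell-like cells among 3834 genes with a mean of at least 0.2 UMIs. These cells share 1 library, and r is given as a description. Mrgprb2 was nearest to Mrgprb1 (r = 0.50), followed by Il1rl1, which encodes the interleukin-33 receptor ST2 (0.35), Xist (0.33), the lysosomal membrane gene Laptm5 (0.33) and Nampt, an enzyme of NAD synthesis (0.32). For Mrgprb2 the nearest after Mrgprb1 were Il1rl1 (0.34), Laptm5 (0.31), the vesicular monoamine transporter gene Slc18a2 (0.29) and Pla2g7, which encodes platelet-activating factor acetylhydrolase (0.28). Among the 8109 Xist cells the pair had an r of 0.49, Il1rl1 was second for both genes (0.38 and 0.36), and the r of Xist itself was 0.10. Because these cells were chosen by their Xist UMIs, the range of Xist is narrowed, and its r cannot be compared with the 0.33 above. The pair's r was 0.16 to 0.40 inside single clusters. The most opposite gene for both was Rps19, which encodes a protein of the small ribosomal subunit (-0.33 and -0.31).

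Other Mas-related receptors had far fewer UMIs, and only 4 of 17 reached 50 UMIs in the cycling comparison. Of these, 3 were 1.5 times or more lower in cycling cells, Mrgprx1 at 0.240 (0.155 to 0.356), Mrgprx2 at 0.219 (0.0931 to 0.441) and Mrgpra4 at 0.609 (0.489 to 0.753), while Mrgpre was at 0.726 (0.530 to 0.977), where 16.6% of all genes were as much lower. Mrgprb4, Mrgprb5 and Mrgprg had 0 UMIs in the 29285 cells. Mrgprx1 was higher in Xist cells, with 11.8 CPM in Xist cells and 0.747 CPM in Y cells, a ratio of 15.8 (8.27 to 34.8). Mrgpra4 was at 10.6 and 11.7 CPM, a ratio of 0.903 (0.746 to 1.10), and Mrgprx2 at 4.06 and 0.664 CPM, a ratio of 6.11 (3.04 to 14.4). Mrgpre was at 5.52 and 3.24 CPM, a ratio of 1.70 (1.21 to 2.45). Of these 4 genes, 3 were thus 1.5 times or more higher in Xist cells, beside 4.72% of all genes.

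The pathway downstream of these receptors was described with a list of genes. Of 23 genes for G proteins, phospholipase C, calcium release and entry, and receptor regulation, 22 were measured, and 7 were 1.5 times or more lower and 2 higher in cycling cells, with a median ratio of 0.785 against 0.965 for all genes, where 16.6% of all genes were as much lower and 14.9% as much higher. Lower genes included Rgs2, a regulator of G protein signalling, at 36.0 against 85.9 CPM (ratio 0.419), Plcb1, a phospholipase C, at 143 against 249.5 CPM (0.572) and Itpr2, an endoplasmic calcium channel, at 243 against 424 CPM (0.573). The 2 higher were Rgs13 at 782 against 407 CPM (1.92) and Plcb4 at 10.3 against 5.23 CPM (1.97). In Kit-high cells 8 of the 22 were 1.5 times or more higher and none lower, among them Gnaq (1.94) and the calcium sensor gene Stim1 (1.82), with a median ratio of 1.31 against 1.14, where 20.7% of all genes were as much higher. Among non-cycling cells 4 of the 22 were higher (Gnaq, Stim1, Rgs2 and Plcb4), a share close to the 18.3% of all genes. Between Xist and Y cells none of the 22 was 1.5 times higher, and 4.84% of all genes were as much lower, as was 1 of them, Plcb4 (0.472).

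Other G protein-coupled receptors of mast cells and genes of connective tissue mast cells were read in the same way. Of 16 such receptors 11 were measured, and 6 were 1.5 times or more lower in cycling cells, including the adenosine receptors Adora2b (0.424) and Adora3 (0.603), where 16.6% of all genes were as much lower. In Kit-high cells 4 of the 11 were higher, beside 20.7% of all genes, and among non-cycling cells 2 were, the histamine receptor gene Hrh4 (1.64) and Adgre5 (1.51), beside 18.3%. None of the 11 differed by that much between Xist and Y cells. Among 10 genes of connective tissue mast cells, 3 were lower in cycling cells, beside 16.6% of all genes: Hdc (0.271), the tryptase gene Tpsb2 (0.523) and Kit (0.599). In Kit-high cells 3 were higher, beside 20.7% of all genes, namely Tpsb2 (1.53), Hdc (1.71) and Kit itself, by which the groups were made. Among non-cycling cells Kit alone reached 1.5 times, with Tpsb2 at 1.33 and Hdc at 1.36. None of the 10 reached 1.5 times in Xist against Y cells, the nearest being the heparan sulfate enzyme gene Hs3st1 just under that limit, at 63.5 against 42.5 CPM. As for the type of mast cell, Cma1 was at 21278 CPM and Mcpt4 at 10431 CPM in the mast cell-like class, while of the 5 genes on the mucosal list Mcpt1 was at 0.530, Mcpt2 at 13.2, Mcpt9 at 0.107 and Itgae at 0.589 CPM. The fifth, the integrin gene Itgb7, was at 66.7 CPM, and the connective tissue genes Tpsab1 and C5ar1 were at 41.2 and 1.61 CPM, so the lists did not separate gene by gene. Precursor genes of peptide ligands were near 0 in mast cell-like cells, with Tac1, the substance P precursor, at 0.00693 CPM. Adm, which encodes adrenomedullin and PAMP, was at 68.0 CPM in fibroblast-like cells and 1.23 CPM in mast cell-like cells, and the cathelicidin gene Camp at 29.5 CPM in macrophage-like cells.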

How the data were processed

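One droplet library of cultured aortic CFU-M cells (Chromium 3′ v3.1) was analysed, deposited as whole-number UMI counts per gene and barcode. Per the submitters' processing notes, the authors used Cell Ranger 7.0.0, STAR, R 4.1.3 and Seurat 4.1.1 with build mm10, and the deposited counts are unnormalised. The members and gene lists were chosen with earlier results of these data known. A second sample, the tag library, was not analysed here.

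Barcodes with under 500 genes, under 1000 UMIs or over 10% mitochondrial UMIs were left out (33964 passed). Scrublet, as run by scanpy 1.11.5 with a threshold of 0.529 on its score, called 4726 barcodes (13.6%) as doublets, of which the 4679 that passed the filters were removed, and 46.5% of simulated doublets lay above the threshold, so some doublets remain. Clusters came from 2000 variable genes, 30 principal components, 15 neighbours and Leiden resolution 0.5 (leidenalg 0.10.2), leaving out 273 marker, listed, Mrgpr, ribosomal and mitochondrial genes but not Xist or Y-linked genes. A cluster of 100 or more cells was named by the marker list with the largest share of genes at 50 CPM or more and 3 times the lowest cluster, limits set after seeing the data. It stayed unnamed where its median depth was more than 3 times below that of all kept cells and none of the list's markers was among its 10 leading genes, which left out cluster 9 alone among clusters of that size. A tag was called at 1.4 (Cafum) or 2 times (the others) its median background UMIs, limits also set after seeing the data. For cycling, Kit and detection, cells were thinned without replacement to 5500 UMIs. CPM are summed UMIs of a gene scaled to the gene UMIs of the group. Level intervals are exact Poisson, share intervals Clopper-Pearson and ratio intervals exact conditional, computed with scipy 1.17.1; they do not cover differences between animals or cultures, and no p-value was computed because there is 1 sample. Genes were named if they were members, on a fixed list, or among the 5 nearest to a member by r. A gene counted as higher or lower at 1.5 times among genes with 50 or more summed UMIs. On simulated cycling and non-cycling sums of 32285 genes, all 100 genes raised and all 100 lowered 3 times were recovered, and 2.82% of 12780 unchanged genes passed 1.5 times. The simulated sums held counting error only. They cannot show how often differences between cells, clusters or sources, or doublets, carry a gene past 1.5 times. Alternatives were a 5% mitochondrial limit, doublets kept, resolution 1, other thinning, other cycling and Kit limits, tag subsets and, added after seeing the data, Xist and Y cells.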

Additional observations from a re-analysis of the deposited data

How the results depend on the processing

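The 6 summed Mrgprb results and the single-gene ratios were recomputed under 62 alternative values. No ratio moved to the other side of 1, while the summed level has no direction and could not reverse. Of the 62 values, 19 were within the interval of the reported value and 43 outside it. The cause of these shifts was not tested. The summed mast cell-like level of 202 CPM was 195 with the Cafum tag alone, 348 in Xist cells and 56.2 in Y cells. The cycling to non-cycling ratio of 0.149 was 0.201 with called doublets kept, 0.137 with the Cafum tag alone, 0.173 in Xist and 0.293 in Y cells, and 0.166 and 0.289 under the stricter Xist and Y limits. The Kit-high to Kit-low ratio of 2.68 was 3.74 without thinning, 2.13 thinned to 3000 UMIs, 2.50 with doublets kept, 2.87 with the Cafum tag alone, 1.89 for the upper against the lower part of Kit split at its median, 1.99 in non-cycling cells, 3.28 in Y cells and 2.99 under the stricter Y limit. The macrophage-like to mast cell-like ratio of 0.392 was 0.438 at a mitochondrial limit of 5%, 0.488 with doublets kept and 0.202 in cells with 1 tag, and the fibroblast-like ratio of 0.156 was 0.218 and 0.117 under the last 2 settings. Co-detection of 2.24 was 2.40 thinned to 3000 UMIs, 1.93 in non-cycling cells, 3.57 at 2 or more UMIs of each gene, 1.69 in Xist and 2.43 in Y cells, and 1.71 and 3.35 under the stricter limits. Low counts limit Mrgprb8, for which no ratio could be given, and the Y cells of clusters 3 and 6. No paired analysis was possible because there was 1 library.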

Other observations

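A small unnamed cluster of 199 cells (cluster 9, median 3358 UMIs) had more Mrgprb1 and Mrgprb2 per UMI than any mast cell-like cluster, at 705 CPM (658 to 755) and 192 CPM (168 to 219). All 7 mast cell markers passed in it, but it stayed unnamed because its median depth was more than 3 times below the 12485 UMIs of all cells and none of its 10 leading genes was a mast cell marker. Its leading genes against all other clusters included Gm17019, Gm9758 and Speer4e. Mrgprx2 was at 164 CPM (141 to 189) there, from 190 of the 778 UMIs of that gene in all cells, against at most 6.94 CPM in a mast cell-like cluster. Calca, which encodes calcitonin and the peptide CGRP, was at 3388 CPM, and Xist at 728 CPM. For each Mrgprb1 UMI the cluster had 0.273 (0.234 to 0.317) UMIs of Mrgprb2, below the 0.330 (0.321 to 0.338) of cluster 3.

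The RNA of Mrgprf, another Mas-related receptor, was found outside the mast cell-like class, with 2 of its 102 UMIs in mast cell-like cells. Mrgpre had 1851 UMIs, 1316 of them in mast cell-like cells.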
